A study of Mus musculus with 26 samples.

Results

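The 33 genes described here are the members of a hypoxia and glycolysis module, measured by RNA sequencing in mouse gliomas. They are 12 enzymes of glycolysis, 20 other genes known to be induced by low oxygen, and Hif1a, the oxygen-regulated subunit of the hypoxia-inducible factor. Members were chosen by symbol and found in the deposited count table through their Entrez identifiers, and all 33 of 24454 listed genes were present and abundant enough to test. The libraries are bulk RNA from tumour cells of 5 genotypes, sorted for green fluorescent protein from a Cre-dependent reporter at the Rosa locus after early tumours had been dissected. All 26 libraries, controls included, come from PDGF-driven gliomas that lack Trp53. On that shared background, 4 libraries are Rbpj-/-, without the DNA-binding partner of the Notch receptors, 5 are Notch1-/-Notch2-/-, without both receptors, 6 are Notch1-/- and 5 are Notch2-/-. The 6 control libraries carry the wild-type form of all 3 Notch pathway genes. Which cells Cre acted in, the age of the mice and whether replicates are separate animals are not stated in the labels, and p-values therefore measure the spread between these samples.

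When oxygen is plentiful, prolyl hydroxylases mark the subunit Hif1a for destruction. When oxygen falls, the subunit persists, pairs with Arnt and binds short DNA elements near its target genes. Those targets raise glucose uptake, glycolysis and lactate export, signal for new vessels, and adjust mitochondria and the extracellular matrix. In gliomas this programme is best known from cells near necrosis, and glycolytic enzymes are also driven by growth factor signalling without low oxygen.

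The binding element is usually written with the core ACGTG. In the RefSeq promoter windows of assembly GRCm38.p6, which run from 250 bases before a gene's start to 50 bases from it, 30 of the 33 members had at least 1 window. The core, searched as ACGTG on both strands, was present in a window of 21 of those 30 genes (70%), against 21.8% of 27025 genes with a window. It was present for 7 of 12 enzymes and 13 of 17 other hypoxia-induced members. The members were picked as hypoxia-responsive genes, and a match says only that the letters are there. The promoters of 4 members that hold the core are shown as examples, with the core and its reverse complement CACGT in capitals. Not every member called below holds it. Pfkl, Pfkp and Kdm3a had no match in any window, and Ndrg1 and Bnip3l had no window. Ldha was higher in 2 genotypes, Hk2 was higher in 1, and Ddit4 was lower in 2 genotypes. Slc16a3 varied most between libraries and was called in no comparison. Where both strands match at adjoining bases the letters read CACGTG, which is also the E-box bound by other factors.
Ldha, chr7:46845554-46845853, plus strand: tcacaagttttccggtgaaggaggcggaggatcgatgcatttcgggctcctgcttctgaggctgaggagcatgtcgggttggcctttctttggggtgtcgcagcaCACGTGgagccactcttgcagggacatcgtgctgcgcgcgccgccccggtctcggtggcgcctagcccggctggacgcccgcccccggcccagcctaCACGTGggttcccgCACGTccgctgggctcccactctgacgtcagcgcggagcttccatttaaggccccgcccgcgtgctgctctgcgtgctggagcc
Hk2, chr6:82774405-82774704, minus strand: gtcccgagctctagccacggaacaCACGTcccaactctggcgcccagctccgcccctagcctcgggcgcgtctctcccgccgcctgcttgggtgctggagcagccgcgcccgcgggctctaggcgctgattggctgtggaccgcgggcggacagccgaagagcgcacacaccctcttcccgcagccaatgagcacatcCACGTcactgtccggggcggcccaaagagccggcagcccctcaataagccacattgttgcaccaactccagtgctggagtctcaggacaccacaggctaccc
Slc16a3, chr11:120948817-120949116, plus strand: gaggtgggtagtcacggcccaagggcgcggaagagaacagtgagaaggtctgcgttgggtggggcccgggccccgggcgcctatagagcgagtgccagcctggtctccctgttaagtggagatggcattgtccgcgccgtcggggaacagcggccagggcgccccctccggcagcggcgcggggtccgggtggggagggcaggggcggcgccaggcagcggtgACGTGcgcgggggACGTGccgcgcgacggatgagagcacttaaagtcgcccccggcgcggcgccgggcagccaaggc
Ddit4, chr10:59951721-59952020, minus strand: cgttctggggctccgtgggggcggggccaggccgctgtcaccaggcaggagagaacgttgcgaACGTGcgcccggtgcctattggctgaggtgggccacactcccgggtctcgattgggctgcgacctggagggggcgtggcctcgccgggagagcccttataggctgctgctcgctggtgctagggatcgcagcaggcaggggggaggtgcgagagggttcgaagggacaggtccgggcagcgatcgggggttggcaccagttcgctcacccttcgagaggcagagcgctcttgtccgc
The Ldha window shown holds 5 matches, of which 4 lie in a pair of E-boxes, and another Ldha window holds none. The Hk2 and Slc16a3 windows hold 2 each, and the Ddit4 window holds 1.

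Library totals were 30868828 to 48103535 counts. Levels are given in CPM, counts relative to the TMM-scaled library total, and a gene is said to have risen or fallen where edgeR's quasi-likelihood test passed an adjusted p of 0.05 over 15617 genes. Rbpj fell in Rbpj-/- libraries (log2 fold change -0.70 ± 0.20 SE, adjusted p = 0.0222) and Notch2 fell in Notch2-/- libraries (-0.79 ± 0.15, adjusted p = 0.02). Notch2 was not called in Notch1-/-Notch2-/- libraries, and Notch1 was not lower in either genotype that lacks it. Which part of each gene was deleted was not given, and reads from outside the deleted part check nothing. The Notch target Hes5 fell in Rbpj-/-, Notch1-/-Notch2-/- and Notch1-/- libraries. The sorted cells carried oligodendrocyte precursor markers at a summed 8150 to 20600 CPM, and markers of mature oligodendrocytes, microglia and endothelium were present at levels that differed between genotypes. Summed microglia and macrophage markers ranged over 129 to 226 CPM in Rbpj-/-, 48.7 to 157 CPM in Notch1-/-Notch2-/-, 53.8 to 259 CPM in Notch1-/-, 306 to 703 CPM in Notch2-/- and 362 to 1530 CPM in control libraries. None of the 15 microglia, 14 endothelial or 10 mature oligodendrocyte markers was at 0 throughout a genotype. Summed proliferation markers were 1670 to 2520 CPM in Rbpj-/-, 1640 to 2900 CPM in Notch1-/-Notch2-/-, 487 to 2120 CPM in Notch1-/- and 550 to 1360 CPM in control libraries. Control replicate 6 and Notch2-/- replicates 3 and 4 held both the female-specific Xist and the Y-linked Ddx3y. In bulk RNA, fewer cells of a type and less RNA per cell cannot be told apart.

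In Rbpj-/- tumour cells 4 members rose against control, all of them glycolytic enzymes, and 1 fell. Over all genes tested, 7.97% rose and 7.25% fell in that comparison, so 5 of 33 is close to the background. In Notch1-/-Notch2-/- cells 3 members rose and 3 fell, where 18.3% of all genes rose and 18.8% fell. In Notch1-/- cells 1 member rose and 4 fell, where 13.2% of all genes rose and 13.5% fell. In Notch2-/- cells no member was called by edgeR, where 0.128% of all genes rose and 0.166% fell. There, 7 members had an unadjusted edgeR p under 0.05, DESeq2 called 0 and limma voom called 2. Over all 15617 genes, 2315 had an unadjusted edgeR p under 0.05. DESeq2 called 89 genes up and 255 down, and limma voom 845 up and 945 down. Leaving out any 1 library moved the Rbpj-/- count, to 11 without Rbpj-/- replicate 3 and to between 1 and 3 without any other but control replicate 4. That replicate is the control library with the highest level of 26 of the 33 members. Without it 13 members passed in Rbpj-/- cells, 13 in Notch1-/-Notch2-/- cells and 8 in Notch1-/- cells. Calls over all genes were not counted for the leave-one-outs. Without the 3 libraries that hold both Xist and Ddx3y, 1 member passed in Rbpj-/- cells, 5 in Notch1-/-Notch2-/- cells and 4 in Notch1-/- cells. Of 15723 genes tested there, 672 rose and 820 fell in Rbpj-/-, 2501 and 2560 in Notch1-/-Notch2-/-, and 1453 and 1689 in Notch1-/- cells. With the microglia markers as a covariate 0 members passed in Rbpj-/-, 1 in Notch1-/-Notch2-/- and 1 in Notch1-/- cells, and with the endothelial or mature oligodendrocyte markers 0 passed in each. These covariates also removed most calls over all genes.

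**Figure D1:**
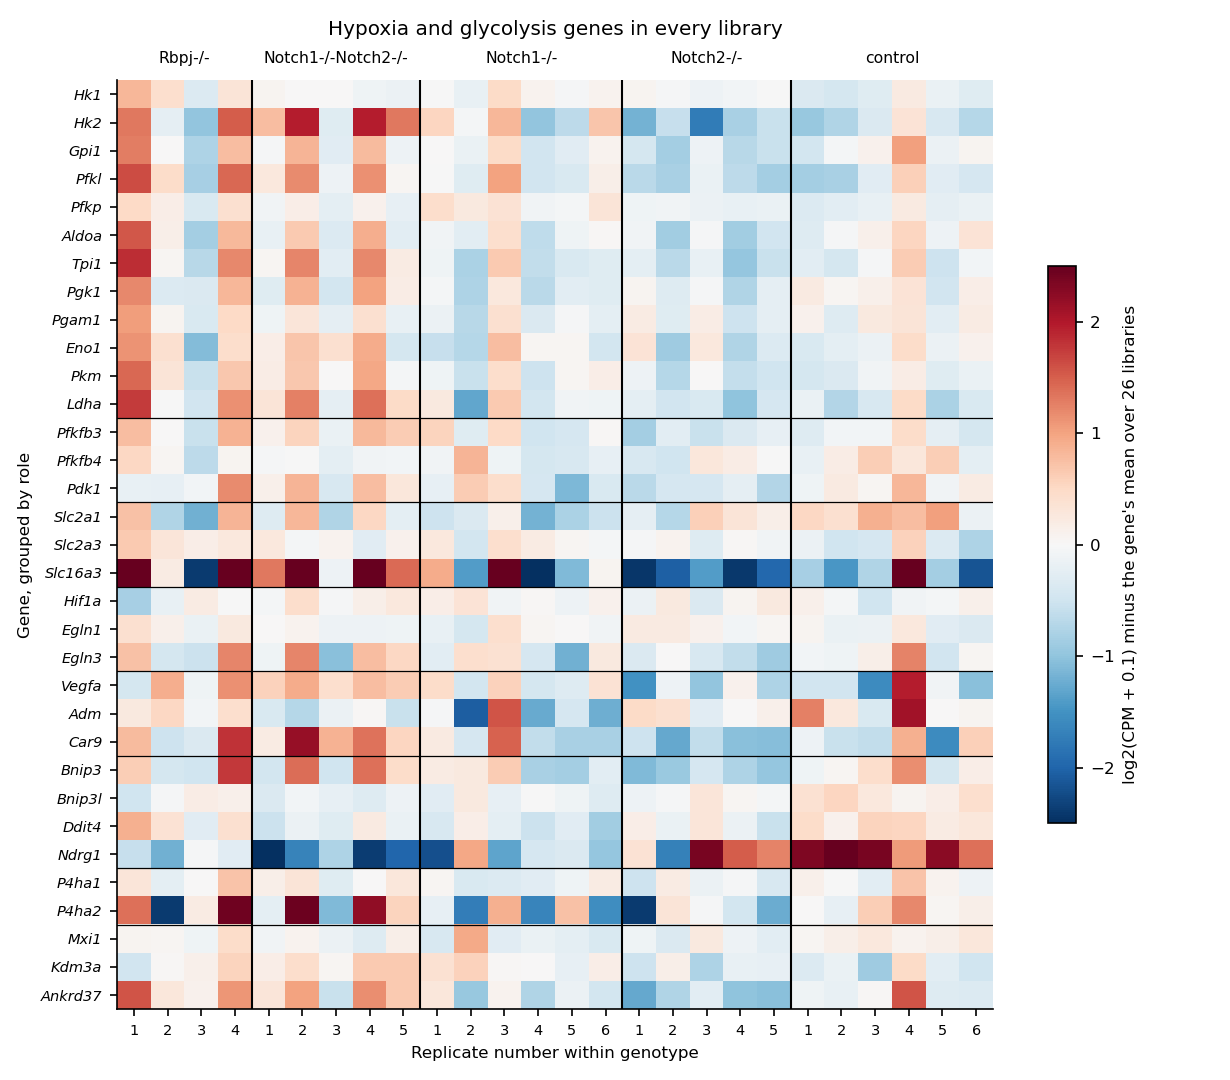
Level of each of the 33 genes (rows, grouped by role) in each library (columns, by genotype and replicate number), as log2(CPM + 0.1) minus the gene's mean over 26 libraries, with colours capped at -2.5 and 2.5. Rbpj-/- replicates 1 and 4, Notch1-/-Notch2-/- replicates 2 and 4, Notch1-/- replicate 3 and control replicate 4 are high for most enzymes, and Ndrg1 is high in control libraries.

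The 12 enzymes, which act on the path from glucose to lactate, include the 4 members that rose in Rbpj-/- cells. Ldha, which reduces pyruvate to lactate, was at 1041, 311, 224 and 688 CPM in the 4 Rbpj-/- libraries, against a lowest of 179, a median of 236 and a highest of 434 CPM in controls. Replicates 1 and 4 lay above every control library, and replicates 2 and 3 lay within the control range. Its log2 fold change was 1.13 ± 0.38 (SE, edgeR adjusted p = 0.0445). Pfkl, the liver-type subunit of phosphofructokinase, had 153, 67.8, 27.9 and 134 CPM in Rbpj-/- cells, against 27.2, 38.7 and 74.5 CPM as the lowest, median and highest control. The same 2 replicates exceeded all controls, and the log2 fold change was 1.21 ± 0.38 (adjusted p = 0.0325 by edgeR). Pkm, the pyruvate kinase that makes pyruvate and ATP, was at 1372, 634, 347 and 815 CPM in Rbpj-/- cells and at 376, 432 and 582 CPM as the lowest, median and highest control. Replicate 3 lay below every control and the other 3 above every control, for a log2 fold change of 0.82 ± 0.27 (edgeR adjusted p = 0.0435). Hk1, the hexokinase expressed in most tissues, was at 181, 136, 80.6 and 127 CPM in Rbpj-/- cells, against 75.0, 82.8 and 120 CPM as the lowest, median and highest control. Of its 4 values 3 exceeded all controls, and the log2 fold change was 0.57 ± 0.16 (edgeR adjusted p = 0.0211).

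The other 8 enzymes had log2 fold changes between 0.34 for Pgam1 and 1.16 for Hk2 in Rbpj-/- cells and did not pass. All 12 fold changes were positive, with a median of 0.56 against 0.07 over all genes. Rbpj-/- replicate 1 was the highest of its genotype for 11 of the 12 and replicate 3 the lowest for 12 of 12, so the enzymes varied together from library to library. The ratio of the highest to the lowest Rbpj-/- library had a median of 4.38 over the enzymes, against 1.81 in controls. None of the 4 enzyme calls held in every leave-one-out. The call of Hk1 held in 7 of 10, those of Pfkl and Ldha in 3 of 10 each, and that of Pkm in 2 of 10. Without Rbpj-/- replicate 1, or without control replicate 2, 1 member passed in the comparison.

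In Notch1-/-Notch2-/- cells the enzymes that rose were Hk2 and Ldha. Hk2, the hexokinase that is induced by low oxygen and abundant in many tumours, was at 25.5, 58.4, 11.9, 57.8 and 37.4 CPM, against 7.67, 10.1 and 18.9 CPM as the lowest, median and highest control. In all, 4 of the 5 libraries lay above every control, for a log2 fold change of 1.77 ± 0.43 (edgeR adjusted p = 0.00301), and the call held when any 1 library was left out. Ldha was at 387, 747, 266, 811 and 431 CPM in Notch1-/-Notch2-/- cells, against the control values above. Every one of the 5 exceeded the control median and 2 exceeded all controls (log2 fold change 1.03 ± 0.36, edgeR adjusted p = 0.0271). The Ldha call held in 7 of 11 leave-one-outs. It was lost without control replicate 2 or 5 or without Notch1-/-Notch2-/- replicate 2 or 4, at edgeR adjusted p of 0.0566 to 0.0947, and at 0.0562 without the 3 libraries that hold both Xist and Ddx3y. Tpi1 and Pfkl were each above all controls in 2 of 5 libraries and did not pass, at log2 fold changes of 0.67 ± 0.36 and 0.87 ± 0.36. Of the 12 enzymes 11 had a positive log2 fold change, and the median was 0.37 against 0.01 over all genes.

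With a single receptor lost, 1 enzyme passed. In Notch1-/- cells Pfkp, the platelet-type phosphofructokinase subunit common in brain, rose with 71.6, 92.9 and 104 CPM as the lowest, median and highest, against 59.9, 66.1 and 89.8 CPM in controls. The groups overlap, and the log2 fold change was 0.37 ± 0.13 (edgeR adjusted p = 0.0424). That call held in 4 of 12 leave-one-outs, those without control replicate 4 or Notch1-/- replicate 2, 4 or 5, with an edgeR adjusted p of up to 0.1 in the others. Of 11 other settings it held in 2, DESeq2 and limma voom. It was lost with DESeq2 size factors in edgeR, no filter, a filter of 10 CPM, the replicate block, the compared libraries only, without the 3 libraries with both Xist and Ddx3y, and with each marker covariate. The other 11 enzymes lay between -0.34 for Pgk1 and 0.62 for Hk2, and the median of the 12 was 0.05 on the log2 scale. In Notch2-/- cells 10 of the 12 were negative, with a median log2 fold change of -0.27, and the most negative was Gpi1, glucose phosphate isomerase, at -0.68 ± 0.30 (edgeR adjusted p = 0.306). Several of these enzymes, Ldha, Pgam1, Aldoa, Eno1, Tpi1, Pgk1 and Pkm among them, have near-identical processed copies in the mouse genome, so reads may have been lost or split in counting and their levels are uncertain.

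**Figure D2:**
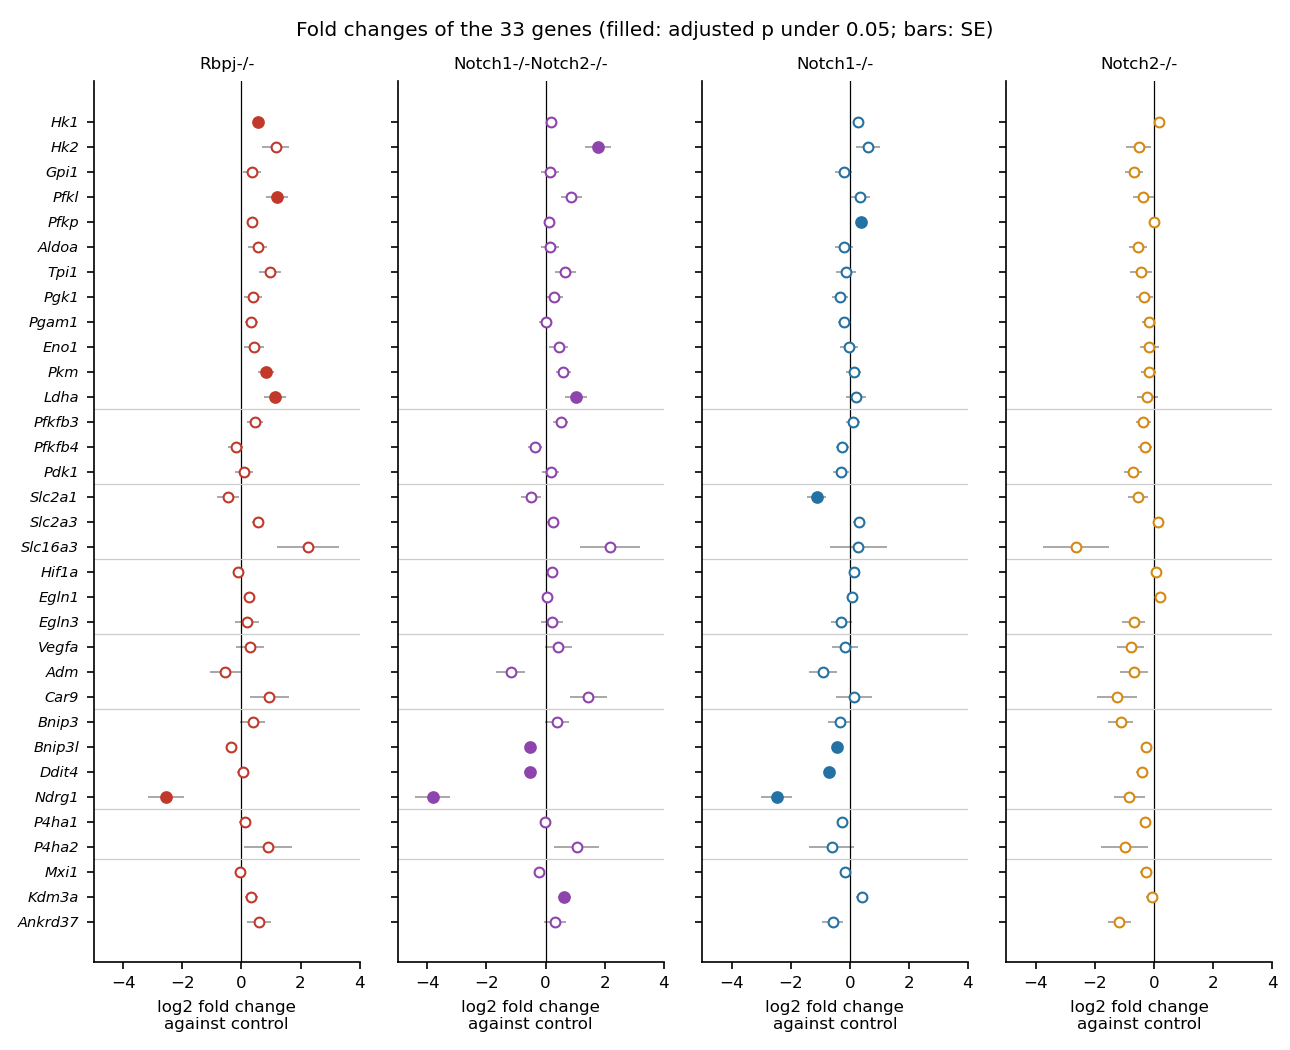
Log2 fold change against control (horizontal axis) of the 33 genes (vertical axis) in Rbpj-/-, Notch1-/-Notch2-/-, Notch1-/- and Notch2-/- libraries, with SE bars and filled points for an edgeR adjusted p under 0.05. Enzymes, the top 12 rows, are all right of 0 in Rbpj-/- cells, and Ndrg1 is left of 0 in every panel.

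Of the 3 regulators of glycolysis, none passed against control in any genotype. Pfkfb3, which makes the activator of phosphofructokinase, had log2 fold changes of 0.47 in Rbpj-/- and 0.51 in Notch1-/-Notch2-/- cells, and of 0.12 in Notch1-/- and -0.35 in Notch2-/- cells. Pdk1, a kinase that inhibits pyruvate dehydrogenase, was at 28.4, 28.3, 30.8 and 74.0 CPM in Rbpj-/- cells, against a control median of 35.6 and a highest control of 58.0 CPM. Only replicate 4 of that genotype lay above all controls. In Notch2-/- cells Pdk1 was at 19.62 to 27.97 CPM, below all 6 controls (log2 fold change -0.71 ± 0.29, edgeR adjusted p = 0.285).

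The transporters moved differently from each other. Slc2a1, the glucose transporter GLUT1, which is hypoxia-induced and also the main glucose carrier of the blood-brain barrier, fell in Notch1-/- cells. Its lowest, median and highest were 14.2, 22.3 and 35.3 CPM there, against 29.0, 50.7 and 66.1 CPM in controls. In all, 5 of 6 Notch1-/- libraries lay below every control, for a log2 fold change of -1.12 ± 0.33 (edgeR adjusted p = 0.0169), and the call held in every leave-one-out. The other genotypes were also negative and not called, at -0.46 ± 0.37 in Rbpj-/-, -0.50 ± 0.35 in Notch1-/-Notch2-/- and -0.53 ± 0.35 in Notch2-/- cells. Summed endothelial markers were 14.0 to 83.1 CPM in Notch1-/- and 81.1 to 330 CPM in control libraries, and 13 of 14 fell. Their part in the fall of Slc2a1 was not tested. Slc2a1 did not pass in the fit with them as a covariate. In that fit only 3 of 15617 genes rose and 4 fell, so it cannot decide this. Slc2a3, the neuronal glucose transporter GLUT3, was not called in any genotype. It was at 135, 106, 96.4 and 103 CPM in Rbpj-/- cells, against a control median of 65.9 and a highest control of 128 CPM (log2 fold change 0.56 ± 0.19, edgeR adjusted p = 0.0524). Slc16a3, the lactate exporter MCT4, spread over the widest range of any member. It had 42.5, 3.62, 0.515 and 39.0 CPM in Rbpj-/- cells, 7.94, 47.4, 2.87, 35.5 and 8.54 CPM in Notch1-/-Notch2-/- cells, and 0.502 to 1.13 CPM in Notch2-/- cells. Controls had a lowest of 0.621, a median of 1.70 and a highest of 19.8 CPM, the last in replicate 4. All 5 Notch1-/-Notch2-/- libraries exceeded the control median, yet no comparison passed. The log2 fold changes were 2.26 ± 1.06 in Rbpj-/-, 2.20 ± 1.02 in Notch1-/-Notch2-/-, 0.30 ± 0.96 in Notch1-/- and -2.64 ± 1.11 in Notch2-/- cells.

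**Figure D3:**
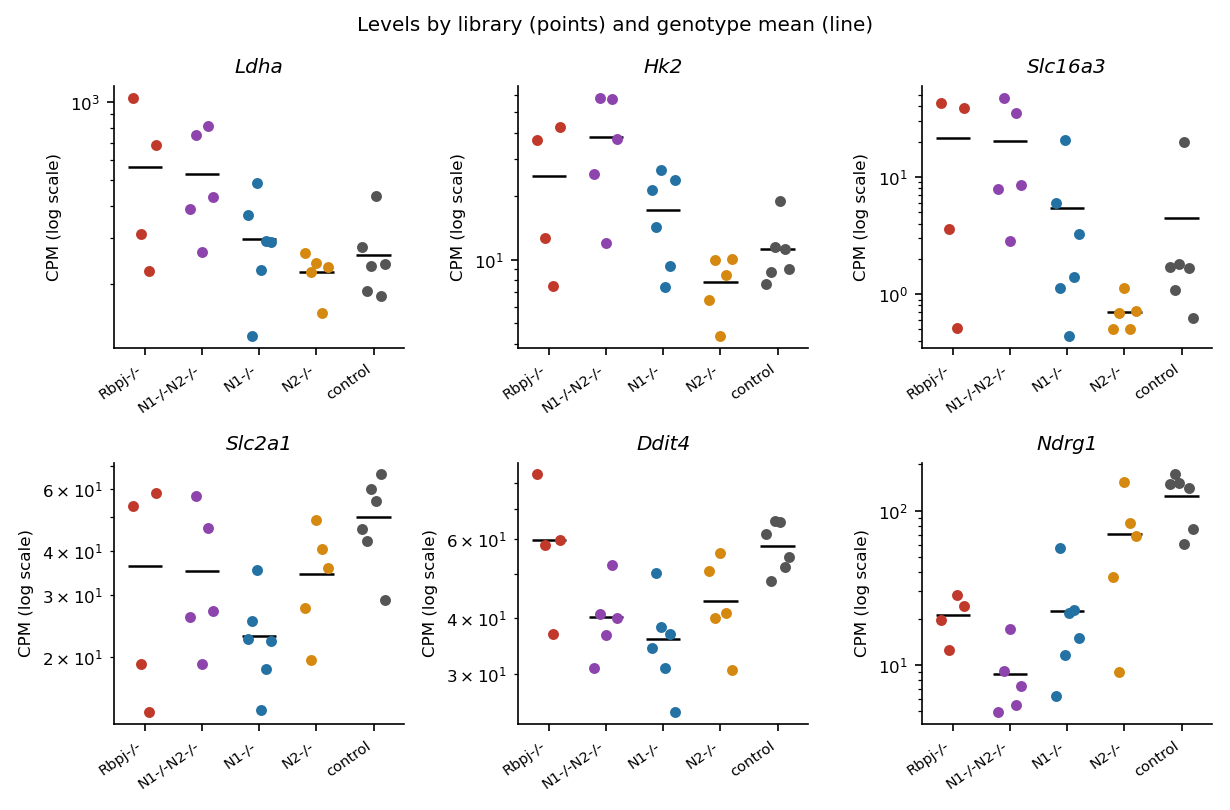
CPM on a log axis of Ldha, Hk2, Slc16a3, Slc2a1, Ddit4 and Ndrg1 in each library (points) of Rbpj-/-, Notch1-/-Notch2-/- (N1-/-N2-/-), Notch1-/- (N1-/-), Notch2-/- (N2-/-) and control tumours, with the genotype mean as a line. In all, 4 of 5 Notch1-/-Notch2-/- libraries are above all controls for Hk2, and 5 of 6 Notch1-/- libraries are below all controls for Slc2a1.

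Hif1a itself was not called in any comparison. Its means were 245 ± 68.1, 306 ± 44.8, 290 ± 35.6, 279 ± 48.0 and 263 ± 38.3 CPM (SD) in Rbpj-/- (n = 4), Notch1-/-Notch2-/- (n = 5), Notch1-/- (n = 6), Notch2-/- (n = 5) and control (n = 6) libraries. Since the subunit is regulated mainly through its protein, its RNA does not measure its activity. Egln1 and Egln3, the hydroxylases that mark Hif1a, were not called either. Egln3, itself a sensitive hypoxia target, had a median of 12.8 CPM in Rbpj-/-, 15.3 CPM in Notch1-/-Notch2-/-, 10.8 CPM in Notch1-/- and 7.99 CPM in Notch2-/- cells, against 10.6 CPM in controls.

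None of the secreted and surface members passed. Vegfa, the main angiogenic factor of the response, was at 67.3, 172, 83.9 and 202 CPM in Rbpj-/- cells and at 136, 173, 121, 156 and 141 CPM in Notch1-/-Notch2-/- cells. Controls had a lowest of 30.5, a median of 65.3 and a highest of 353 CPM, so that every Rbpj-/- and Notch1-/-Notch2-/- library exceeded the control median and none exceeded control replicate 4. The log2 fold changes were 0.29 ± 0.49 and 0.44 ± 0.46. Adm, a vasodilator peptide, had log2 fold changes of -0.55 in Rbpj-/-, -1.18 in Notch1-/-Notch2-/-, -0.90 in Notch1-/- and -0.67 in Notch2-/- cells. The control median was 7.798 CPM, with control replicates 1 and 4 at 16.79 and 29.96 CPM. The Rbpj-/- median was higher, at 8.761 CPM, with 3 of 4 libraries above the control median. The Notch2-/- median was 7.554 CPM, with 2 of 5 libraries above it. All 5 Notch1-/-Notch2-/- and 5 of 6 Notch1-/- libraries lay below the control median. Car9, the surface carbonic anhydrase often used to stain hypoxic tissue, was at most 1.83 CPM in any library, and its lowest library held 2 counts, so differences in it were hardly detectable at this depth.

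The mitophagy and stress genes were the group with the most calls downward. Ndrg1, a stress-responsive gene that is also needed in myelinating cells, fell in Rbpj-/-, Notch1-/-Notch2-/- and Notch1-/- cells. It was at 19.6, 12.6, 28.5 and 24.0 CPM in Rbpj-/- cells and at 4.93, 9.09, 17.1, 5.54 and 7.31 CPM in Notch1-/-Notch2-/- cells. Notch1-/- libraries had a lowest of 6.26, a median of 18.4 and a highest of 57.1 CPM, against 61.1, 144 and 172 CPM in controls. No library of the 3 genotypes reached the lowest control. The log2 fold changes were -2.56 ± 0.61 (edgeR adjusted p = 0.0101), -3.82 ± 0.60 (edgeR adjusted p = 8.13e-05) and -2.47 ± 0.52 (edgeR adjusted p = 0.00219) in Rbpj-/-, Notch1-/-Notch2-/- and Notch1-/- cells, and each held in every leave-one-out.

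Ndrg1 moved with the markers of mature oligodendrocytes. Their summed level was 2490 to 8020 CPM in Rbpj-/-, 1440 to 4610 CPM in Notch1-/-Notch2-/-, 1720 to 16700 CPM in Notch1-/- and 1780 to 18700 CPM in Notch2-/- libraries, against 8710 to 23300 CPM in controls. Of the 10 markers 9 fell in Rbpj-/-, 10 in Notch1-/-Notch2-/- and 8 in Notch1-/- cells. The relation was also seen within a genotype. In Notch2-/- replicate 3 the markers summed to 18700 CPM and Ndrg1 was at 153 CPM, and in Notch2-/- replicate 2 the values were 1780 and 9.01 CPM. Notch1-/- replicate 2, with 16700 CPM of the markers, had the highest Ndrg1 of its genotype. With these markers as a covariate no member passed in any of the 3 comparisons. Few genes of any kind did. Of 15617, 14 rose and 12 fell in Rbpj-/-, 111 and 73 in Notch1-/-Notch2-/-, and 82 and 134 in Notch1-/- cells. The loss of the call is therefore not particular to Ndrg1, and the part of mature oligodendrocytes in its fall was not tested.

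**Figure D4:**
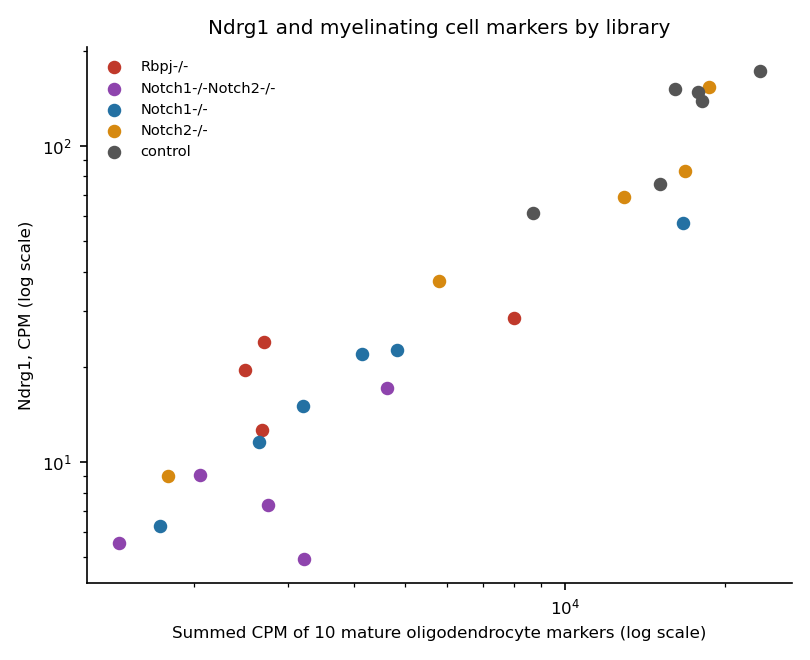
Ndrg1 level in CPM (vertical, log axis) against the summed CPM of 10 mature oligodendrocyte markers (horizontal, log axis), with 1 point for each of 26 libraries, coloured by genotype. Libraries run from Notch1-/-Notch2-/- at the lower left to control at the upper right, and Notch2-/- libraries cover most of the range.

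Ddit4, an inhibitor of mTORC1 known as REDD1, fell in Notch1-/-Notch2-/- and Notch1-/- cells. It was at 30.9, 40.8, 36.6, 52.6 and 40.0 CPM in Notch1-/-Notch2-/- cells. Notch1-/- cells had a lowest of 24.6, a median of 35.6 and a highest of 50.4 CPM, against 48.4, 58.2 and 65.9 CPM in controls. In all, 4 of 5 Notch1-/-Notch2-/- and 5 of 6 Notch1-/- libraries lay below every control. The log2 fold change was -0.53 ± 0.19 (edgeR adjusted p = 0.034) in Notch1-/-Notch2-/- cells, a call that held in 4 of 11 leave-one-outs, with an edgeR adjusted p of 0.0554 to 0.0916 in the other 7. It was -0.69 ± 0.18 (edgeR adjusted p = 0.00893) in Notch1-/- cells, a call that held in all 12. In Rbpj-/- cells Ddit4 had a log2 fold change of 0.04 ± 0.20. Bnip3l, the mitophagy receptor NIX, fell in the same genotypes. It was at 104, 128, 116, 107 and 123 CPM in Notch1-/-Notch2-/- cells. Notch1-/- libraries had 107, 120 and 160 CPM as the lowest, median and highest, against 141, 168 and 195 CPM in controls. All 5 Notch1-/-Notch2-/- and 5 of 6 Notch1-/- libraries lay below every control, with log2 fold changes of -0.53 ± 0.13 (edgeR adjusted p = 0.00271) and -0.41 ± 0.12 (edgeR adjusted p = 0.0158). Both calls held in every leave-one-out. Its paralog Bnip3, also a mitophagy receptor, did not pass. Bnip3 was at 39.8, 19.0, 18.3 and 89.2 CPM in Rbpj-/- cells, 18.8, 68.3, 18.3, 67.7 and 35.8 CPM in Notch1-/-Notch2-/- cells and 12.1 to 19.3 CPM in Notch2-/- cells, against a control median of 28.2 CPM. Its high libraries were those with high enzymes.

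Among the last members, Kdm3a, a histone H3 lysine demethylase, rose in Notch1-/-Notch2-/- cells. Its values there were 135, 163, 124, 189 and 188 CPM, against 64.5, 96.8 and 167 CPM as the lowest, median and highest control. All 5 were above the control median and 2 above every control (log2 fold change 0.64 ± 0.21, edgeR adjusted p = 0.0221). The call held in 8 of 11 leave-one-outs, and without control replicate 3 or Notch1-/-Notch2-/- replicate 4 or 5 the edgeR adjusted p was 0.0555 to 0.0595. P4ha1 and P4ha2, which hydroxylate collagen, Mxi1, an antagonist of Myc, and Ankrd37, a small ankyrin protein that is a hypoxia target, were not called. In Notch2-/- cells Ankrd37 was at 1.25, 1.82, 2.60, 1.52 and 1.47 CPM, against 2.46, 2.84 and 9.62 CPM as the lowest, median and highest control. In all, 4 of the 5 values lay below every control, and the log2 fold change was -1.18 ± 0.39 (edgeR adjusted p = 0.202).

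Setting the enzymes beside the other hypoxia-induced members, the means per library of log2 CPM were taken over 12 and 20 genes. The enzyme mean was 7.37 ± 0.84 in Rbpj-/- (n = 4), 7.31 ± 0.48 in Notch1-/-Notch2-/- (n = 5), 6.89 ± 0.38 in Notch1-/- (n = 6), 6.56 ± 0.20 in Notch2-/- (n = 5) and 6.83 ± 0.31 in control libraries (SD, n = 6). The mean of the other members was 4.65 ± 0.62 in Rbpj-/-, 4.61 ± 0.41 in Notch1-/-Notch2-/-, 4.18 ± 0.36 in Notch1-/- and 4.02 ± 0.19 in Notch2-/- libraries, against 4.56 ± 0.40 in controls. The difference, other members minus enzymes, was -2.72 ± 0.46 in Rbpj-/-, -2.70 ± 0.17 in Notch1-/-Notch2-/-, -2.70 ± 0.21 in Notch1-/- and -2.54 ± 0.29 in Notch2-/- libraries, against -2.27 ± 0.20 in controls. All 4 mutant means lie below the control mean, and all 4 mutant ranges overlap that of controls, -2.58 to -2.06. The highest library was at -2.25 in Rbpj-/-, -2.45 in Notch1-/-Notch2-/-, -2.32 in Notch1-/- and -2.19 in Notch2-/-. The 20 other members include Ndrg1, and the means were not taken without it. The median log2 fold changes of the other members were 0.23, 0.20, -0.27 and -0.60 in Rbpj-/-, Notch1-/-Notch2-/-, Notch1-/- and Notch2-/- cells, each lower than that of the enzymes. In Notch2-/- cells 18 of the 20 other members were negative, against controls that include replicate 4, the highest control for 14 of the 20. These are descriptions of chosen lists, and no test was made of them.

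**Figure D5:**
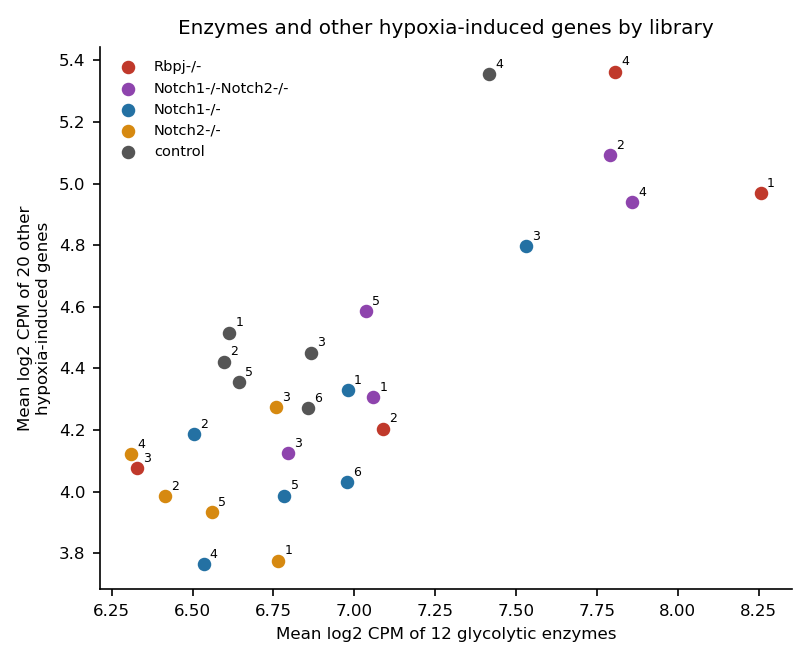
Mean log2 CPM of 12 glycolytic enzymes (horizontal) and of 20 other hypoxia-induced genes (vertical) in each of 26 libraries, coloured by genotype and marked with the replicate number. Rbpj-/- replicates 1 and 4, Notch1-/-Notch2-/- replicates 2 and 4, Notch1-/- replicate 3 and control replicate 4 stand at the upper right, and control replicates 1, 2 and 5 have higher values on the vertical axis than most mutants with similar enzymes.

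Libraries with a high enzyme mean mostly had a high mean of the other members too, with exceptions. Notch2-/- replicate 1 had the highest enzyme mean of its genotype, 6.76, and the lowest mean of the other members, 3.78. Control replicate 6 had the lowest mean of the other members among controls, 4.27, at an enzyme mean of 6.86. In controls, replicate 4 was the highest library for 12 of 12 enzymes and 14 of 20 other members, with an enzyme mean of 7.42 on the log2 CPM scale where the other 5 had 6.60 to 6.87. It also had the lowest summed microglia, endothelial and mature oligodendrocyte markers of the controls, at 362, 81.1 and 8710 CPM. In Notch1-/-, replicate 3 was the highest for 11 of 12 enzymes and 9 of 20 other members. In Notch1-/-Notch2-/-, replicates 2 and 4 shared 11 of the 12 highest enzyme values and replicate 3 had 9 of the lowest. These Notch1-/-Notch2-/- replicates 2 and 4 had the lowest oligodendrocyte precursor markers of their genotype, at 9650 and 8150 CPM, against 15100 to 17100 CPM in the other 3.

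Several members are paralogs with the same role, and their balance was compared per gene length as RPKM, CPM divided by the deposited length in kilobases. Hk2 made up 23.0% ± 10.5 of hexokinase Hk1 plus Hk2 in Notch1-/-Notch2-/- cells (SD, n = 5), against 9.18% ± 1.48 in controls (n = 6). Slc2a1 made up 27.8% ± 7.03 of Slc2a1 plus Slc2a3 in Notch1-/- cells (n = 6), against 50.9% ± 7.67 in controls, and these ranges, 18.0% to 38.4% against 40.0% to 60.1%, do not overlap. Its mean share was also below that of controls in the other genotypes. It was 31.1% ± 13.4 in Rbpj-/-, 37.1% ± 13.0 in Notch1-/-Notch2-/- and 38.6% ± 10.2 in Notch2-/- cells, with ranges that overlap the controls. Pfkl made up 50.9% ± 12.5 of Pfkl plus Pfkp in Rbpj-/- cells (n = 4) and 51.7% ± 7.45 in Notch1-/-Notch2-/- cells, against 39.2% ± 5.58 in controls. Bnip3 made up 16.4% ± 0.981 of Bnip3 plus Bnip3l in Notch2-/- cells, against 25.7% ± 9.14 in controls.

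Other genes of these pathways were read from 3 further lists. Of 22 tested genes of glycolysis outside the members, 1 rose and 2 fell in Rbpj-/-, 7 rose and 7 fell in Notch1-/-Notch2-/-, and 4 rose and 4 fell in Notch1-/- cells, and none was called in Notch2-/- cells. Over all genes 7.97% rose and 7.25% fell in Rbpj-/-, 18.3% and 18.8% in Notch1-/-Notch2-/-, and 13.2% and 13.5% in Notch1-/- cells. The counts in this list and in the next 2 are to be read against those shares, and nothing is read from them about the lists. The comparisons also share their control libraries, so a gene called in several of them was not measured against separate controls. Pdk4, a pyruvate dehydrogenase kinase of fat-burning tissues, fell in all 3 genotypes with called members, at log2 fold changes of -2.89 in Rbpj-/-, -3.08 in Notch1-/-Notch2-/- and -2.47 in Notch1-/- cells. Every library of these genotypes lay below every control, and the 3 calls held in every leave-one-out. Aldoc, the aldolase of astrocytes, fell in the same 3, at -0.91 in Rbpj-/-, -1.59 in Notch1-/-Notch2-/- and -0.94 in Notch1-/- cells. Summed astrocyte markers also differed, at 757 to 1270 CPM in Rbpj-/-, 523 to 1040 CPM in Notch1-/-Notch2-/- and 747 to 1320 CPM in Notch1-/-, against 1200 to 2340 CPM in controls, and their part in the fall of Aldoc was not tested. Gapdh was counted at 0.579 CPM on average in controls, far below what is known of this abundant enzyme, so its counts are not read as its level.

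Of 41 other genes of the hypoxia pathway, 5 rose and 3 fell in Rbpj-/-, 6 rose and 8 fell in Notch1-/-Notch2-/-, and 4 rose and 6 fell in Notch1-/- cells, against the same shares of 7.97% and 7.25%, 18.3% and 18.8%, and 13.2% and 13.5% of all genes. Arnt, the partner of Hif1a, rose in all 3, with log2 fold changes of 0.40 ± 0.13, 0.58 ± 0.12 and 0.48 ± 0.12 in Rbpj-/-, Notch1-/-Notch2-/- and Notch1-/- cells, and edgeR adjusted p of 0.0432, 0.00102 and 0.00579. It was above every control in 3 of 4, 5 of 5 and 6 of 6 libraries. Its call held in 2 of 10 leave-one-outs in Rbpj-/- cells, and in every one in the other 2 genotypes. Gys1, muscle glycogen synthase, and Plod2, which hydroxylates lysine in collagen, also passed in all 3. The call of Gys1 held in 3 of 12 leave-one-outs in Notch1-/- cells, and that of Plod2 in 3 of 10 in Rbpj-/- and 3 of 12 in Notch1-/- cells. Gbe1, the glycogen branching enzyme, and Higd1a, a mitochondrial hypoxia-induced protein, fell in all 3, with calls that held in 2 of 10 and 3 of 10 leave-one-outs in Rbpj-/- cells. Epas1, the HIF2 subunit, which is strong in endothelium, fell in Notch1-/-Notch2-/- and Notch1-/- cells, at -2.22 ± 0.46 and -1.33 ± 0.42, and Vhl, which targets both subunits for destruction, fell in the same genotypes at -0.61 ± 0.12 and -0.45 ± 0.12. Of these 4 calls, that of Epas1 in Notch1-/- cells was lost without Notch1-/- replicate 1 (edgeR adjusted p = 0.055). Of 22 genes of pyruvate dehydrogenase and the citric acid cycle, 2 rose in Rbpj-/-, 1 rose and 2 fell in Notch1-/-Notch2-/- and 4 fell in Notch1-/- cells. Malate dehydrogenase Mdh1 fell in Notch1-/-Notch2-/- and Notch1-/- cells, at -0.56 ± 0.14 and -0.52 ± 0.14.

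Mutant genotypes were compared directly in 2 pairs, and no member passed in either by edgeR. Between Rbpj-/- and Notch1-/-Notch2-/- cells, where 0.435% of all genes were called up and 0.359% down, 3 members had an unadjusted p under 0.05. They were Hk1 and Ndrg1, higher in Rbpj-/- cells, and Ddit4, also higher there at a log2 fold change of 0.57 ± 0.21. Over all 15617 genes, 1928 had an unadjusted edgeR p under 0.05. Of the members, DESeq2 and limma voom both called 0. Of all genes, DESeq2 called 160 up and 157 down, and limma voom 80 up and 68 down. Between Notch1-/- and Notch2-/- cells, where edgeR called 0.839% up and 2.25% down, 5 members had an unadjusted edgeR p under 0.05. DESeq2 called 2 members and limma voom called 1. Over all 15617 genes, 2934 had an unadjusted edgeR p under 0.05. DESeq2 called 472 genes up and 627 down, and limma voom 701 up and 1203 down. Of the members, Ndrg1 had the most negative log2 fold change, -1.65 ± 0.52 (edgeR adjusted p = 0.084), and Slc16a3 the most positive, 2.94 ± 1.13 (edgeR adjusted p = 0.153). Slc16a3 averaged 5.48 CPM in Notch1-/- and 0.7104 CPM in Notch2-/- cells. Ndrg1 averaged 22.4 CPM in Notch1-/- and 70.3 CPM in Notch2-/- cells.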

How the data were processed

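RNA was taken up in TRIzol from sorted tumour cells, libraries were made with a stranded TruSeq kit and sequenced on a NextSeq instrument, per the labels' protocols. The authors deposited whole-number counts per gene with a gene length, and STAR and the build mm10 are named in the submitters' processing notes. How reads were counted, with which annotation and strand option, and by which STAR release is not given in the sources, which leaves overlapping, antisense and near-identical genes uncertain. Of 24454 Entrez identifiers, 24374 matched a RefSeq symbol of GRCm38.p6, and 0.348% of counts had none.

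The filterByExpr filter left 15617 genes. Counts were scaled by TMM and fitted with genotype as the only term over all 26 libraries in edgeR 4.0.16 (R 4.3.3). Quasi-likelihood p-values were adjusted over all genes by Benjamini-Hochberg. A standard error is the absolute log2 fold change over the square root of F, and log2 CPM used a prior count of 2. RPKM was computed here from CPM and the deposited gene length. The fit was tested on simulated data. No pair of replicates agreed within sampling noise. The Notch2-/-, Notch1-/-, Notch1-/-Notch2-/- and Rbpj-/- comparisons share their controls. The 33 members, the further lists and the tests were chosen with earlier results of these data known. All members are accounted for, and values are given for called members and, by role, for others. Alternatives were DESeq2 1.42.0 size factors and Wald test, limma 3.58.1 voom, other filters, a replicate block, the compared libraries alone, 3 cell marker covariates, and leaving out libraries. The mature oligodendrocyte covariate was added after seeing the data.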

Additional observations from a re-analysis of the deposited data

Results flagged for a closer look

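In groups of 4 to 6 libraries, a value was singled out where its gap to the nearest other was over Dixon's critical share of the group's range. Gap and range were taken on log2 CPM, and the values below are given in CPM. Of 165 groups, 11 held such a value, 9 of them high, and chance gives about 1 in 20 groups. The highest values of control replicate 4 made up 5 of them. It had 89.8 CPM of Pfkp, 58.0 CPM of Pdk1, 19.8 CPM of Slc16a3, 25.2 CPM of Egln3 and 9.62 CPM of Ankrd37. Notch1-/- replicate 2 stood apart with 14.3 CPM of Pfkfb4 and 129 CPM of Mxi1. Pdk1 was high in Rbpj-/- replicate 4 at 74.0 CPM, and Pfkl was high in Notch2-/- replicate 3 at 44.2 CPM. The low values were Pgk1 in control replicate 5, at 138 CPM, and Hif1a in control replicate 3, at 194 CPM.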

How the results depend on the processing

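The counts of called members depended on which cells were allowed for and which libraries entered. For Rbpj-/- against control, 5 members passed. That count was 3 with no filter, 1 with the compared libraries only, 1 without the 3 libraries that hold both Xist and Ddx3y, 0 with the microglia, endothelial or mature oligodendrocyte markers as a covariate, and 1 to 13 over the leave-one-outs. Of 20409 genes tested with no filter 921 rose and 1000 fell. With the compared libraries only, 346 of 15125 rose and 876 fell. For Notch1-/-Notch2-/-, 6 members passed, 11 with limma voom, 1 with the microglia covariate, 0 with the endothelial or mature oligodendrocyte covariate, and 4 to 13 over the leave-one-outs. There, limma voom called 3686 of 15617 genes up and 3678 down. For Notch1-/-, 5 members passed, 10 with limma voom, 1 with the microglia covariate, 0 with the endothelial or mature oligodendrocyte covariate, and 4 to 8 over the leave-one-outs. In this comparison limma voom called 3468 of 15617 genes up and 3439 down. For Notch2-/-, 0 members passed by edgeR, 2 by limma voom, which called 845 genes up and 945 down, and 0 in every leave-one-out. For Rbpj-/- against Notch1-/-Notch2-/-, 0 members passed under every setting. For Notch1-/- against Notch2-/-, 0 members passed by edgeR, 2 by DESeq2, 1 by limma voom, 1 with the microglia covariate, and 0 to 1 over the leave-one-outs. Over all genes, DESeq2 called 472 up and 627 down, limma voom 701 and 1203, and the fit with the microglia covariate 122 and 35.

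The covariates also removed most calls over all genes. With the microglia covariate, 0 genes rose and 3 fell in Rbpj-/-, and 2 rose and 5 fell in Notch1-/- cells. In Notch1-/-Notch2-/- cells 45 rose and 45 fell. The endothelial covariate left 3 up and 9 down in Rbpj-/-, 28 and 31 in Notch1-/-Notch2-/-, and 3 and 4 in Notch1-/- cells. The mature oligodendrocyte covariate left 14 and 12, 111 and 73, and 82 and 134 in the same order. Member counts under the covariates are to be read against these totals.

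Some log2 fold changes turned direction. With the mature oligodendrocyte covariate Ldha was -0.44, Pdk2 0.30, Stc2 -0.12 and Cited2 -0.29 in Notch1-/-Notch2-/-, and Stc2 was -0.17 in Notch1-/- cells. With the microglia covariate Hk3 was 2.39, Cited2 -0.07 and Edn1 0.036 in Notch1-/-Notch2-/-, and Stc2 was -0.20 and Edn1 0.55 in Notch1-/- cells. With the endothelial covariate Edn1 was 0.46 in Notch1-/-Notch2-/-, and Pfkp was -0.058 and Edn1 1.33 in Notch1-/- cells. The cause was not tested.

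With the replicate number as a block, 1 member passed in Rbpj-/- and 6 in Notch1-/-Notch2-/-, 4 in Notch1-/- and 0 in Notch2-/- cells. Whether the numbers mark a shared batch was not settled. Deviations of same-numbered libraries from their genotype means correlated between -0.342 and 0.627. Libraries that correlated best with their own number, mutant and control together, were 0 of 8 for Rbpj-/- and 3 of 10 for Notch1-/-Notch2-/-. They were 3 of 12 for Notch1-/- and 2 of 10 for Notch2-/-. Between Rbpj-/- and Notch1-/-Notch2-/- they were 2 of 8, and between Notch1-/- and Notch2-/- 0 of 10.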
